A study of Mus musculus with 8 samples.

Results

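Tsc22d3 encodes the glucocorticoid-induced leucine zipper, a small nuclear and cytoplasmic regulator, and its transcript was lower in embryonic mouse hearts labelled as an ATF4 knockout. It was examined together with the 3 other genes of the TSC22 family (Tsc22d1, Tsc22d2 and Tsc22d4), with the glucocorticoid receptor gene Nr3c1, and with 5 further genes known to respond to glucocorticoid (Fkbp5, Per1, Klf9, Sgk1 and Zbtb16). These 10 genes, taken by symbol from a table of 52778 features, were selected on the lower Tsc22d3 value of the mutants in this same table, and the question was whether its family or other genes of the receptor share that difference. Ventricular heart was taken from embryos at embryonic day 11.5 and sequenced in 8 libraries. The 4 control libraries are labelled C57BL/6 WT with no treatment. The 4 mutant libraries are labelled as a global ATF4 knockout and carry, per the series design, the Atf4(del7/del7) allele, in which CRISPR/Cas9 removed 7 bases from exon 3 of both copies and shifted the reading frame. Their genotype field nevertheless reads C57BL/6 WT, and whether controls were littermates is not given in the sources used here. Nothing was injected or fed to either group, per the labels, so no glucocorticoid was given.

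Glucocorticoids act through a receptor that waits in the cytoplasm in a complex with heat shock protein 90 and its cochaperones. On binding hormone it enters the nucleus and binds glucocorticoid response elements, a palindrome of short arms with 3 letters between them. In many tissues Tsc22d3, Fkbp5, Per1, Klf9, Sgk1 and Zbtb16 are among the genes that rise first and most widely, and in the fetal heart the receptor is known for its part in the maturation of the muscle late in gestation. TSC22 proteins share a TSC box and a leucine zipper through which they pair with each other, and Tsc22d3 also responds to other inputs, among them FOXO factors.

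Expression is given as TPM, a transcript level that takes gene length and library total into account. Read numbers are unknown, so an error given after ± is the spread over a group's 4 libraries. Log2 differences are mutant minus control on the log2(TPM + 1) scale. Libraries correlated between 0.9897 and 0.9913 within groups and between 0.9897 and 0.9915 between groups (Pearson r over 15545 tested genes). The 10 cardiomyocyte markers summed to between 31570 and 33942 TPM in every library, while 6 of 8 neuronal markers stayed below 1 TPM throughout, although the extraction protocol attached to the samples names cultured cortical neurons. Atf4 itself was higher in mutant hearts, at 166 ± 15.1 TPM against 112 ± 8.07 TPM (SD, n = 4 each), so its transcript does not check the loss of the protein. Of all genes tested, 6 passed an adjusted p of 0.05 (limma, Benjamini-Hochberg), which is 0.0386%.

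Tsc22d3 was lower in every mutant library than in every control library. Its level was 109.6, 107.4, 109.4 and 110.2 TPM in control replicates 1 to 4, against 88.4, 93.1, 97.2 and 98.1 TPM in mutant replicates 1 to 4. The controls lay within a few TPM of each other and the mutants spread more widely, with mutant replicate 1 the lowest, and 9.30 TPM separated the highest mutant from the lowest control. The means were 109 ± 1.22 TPM in control hearts and 94.2 ± 4.41 TPM in mutant hearts (SD, n = 4 each), so the mutant mean was 86.3% of the control mean. The log2 difference was -0.21 with a standard error of 0.038. Since the gene was picked for this difference, it is given as a description with no test. Over all tested genes the 4 mutant and 4 control values failed to overlap in 3.68%, and the mutants were the lower group in 2.05%.

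Tsc22d3 lies on the minus strand of chromosome X, from base 140539528 to base 140600522 of GRCm38, in a stretch shared with no other feature of the table. The sex of the embryos bears on an X-linked gene. Xist, the RNA of the inactive X, was at most 0.110 TPM in any library while Ddx3y, a gene of the Y chromosome, ranged from 26.4 to 35.9 TPM over the 8, and the 578 tested X-linked genes had a median log2 difference of -0.010. RefSeq places 3 start sites of Tsc22d3 in this build, and the gene-level TPM does not tell their transcripts apart. The outermost start coincides with the 5′ end of the listed gene at base 140600522. Its 250 preceding bases, on the minus strand at chrX:140600523-140600772, are shown because they hold the only match in the 3 windows of the gene to any motif searched, the arm TGTTCT of a glucocorticoid response element, in capitals.
Tsc22d3, 250 bases before the outermost start: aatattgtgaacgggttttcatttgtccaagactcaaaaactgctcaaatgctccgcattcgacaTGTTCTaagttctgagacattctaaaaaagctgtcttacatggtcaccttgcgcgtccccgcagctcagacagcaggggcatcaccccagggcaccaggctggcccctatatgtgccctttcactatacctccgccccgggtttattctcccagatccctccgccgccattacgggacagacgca

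The arm begins at position -185 from the start. Such an arm, on either strand, is common: it occurs in 19% of the 32851 RefSeq promoter windows of 300 bases (250 before and 50 after a start), so its presence describes the window and nothing more. The other motifs searched on both strands in all windows were the full response element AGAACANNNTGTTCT and a relaxed form GNACANNNTGTNC, both of which contain or overlap the arm. The cAMP response element TGACGTCA and its first 7 letters TGACGTC, the C/EBP-ATF element TGATGNAA to which ATF4 binds with C/EBP partners, the FOXO site TGTTTAC and the E-box CACGTG of the clock factors were searched as well. None of these was found in the 3 Tsc22d3 windows, which says nothing of sites farther away.

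The other TSC22 genes did not differ between genotypes beyond the spread of their libraries. Tsc22d1, first found as a gene induced by TGF-beta, is the most abundant of the family here, on chromosome 14 from base 76414961 to base 76507765. Its controls held 275.3, 249.8, 271.7 and 278.5 TPM and its mutants 261.1, 247.8, 253.2 and 261.4 TPM. Every mutant lay below 3 of the 4 controls, but control replicate 2 sat among the mutants, so the groups overlapped. The log2 difference was -0.070 with a 95% confidence interval of -0.16 to 0.020 (limma, adjusted p of 0.857).

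Tsc22d4, known as a regulator of hepatic lipid and glucose metabolism (chromosome 5, bases 137745969 to 137768453), had control values of 62.6, 65.5, 64.0 and 70.5 TPM and mutant values of 69.4, 64.9, 70.5 and 60.1 TPM. Both groups spanned much the same range. Its log2 difference of 0.011 had an interval of -0.12 to 0.14 (limma, adjusted p of 0.992). Tsc22d2, a further member with long protein isoforms (chromosome 3, bases 58414702 to 58466787), was the least abundant. It had 25.8, 26.3, 25.2 and 26.9 TPM in control hearts and 26.6, 24.9, 25.7 and 25.1 TPM in mutant hearts. Its log2 difference was -0.027, with an interval of -0.12 to 0.066 (limma, adjusted p of 0.960), and the groups overlapped.

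In TPM, which is a level per length, the family stood in the order Tsc22d1, Tsc22d3, Tsc22d4, Tsc22d2 in every library, and no 2 neighbours in that order overlapped in range over the 8 libraries. Tsc22d3 made up 23.2% ± 0.516 of the summed family TPM in control hearts and 21.3% ± 1.00 in mutant hearts (SD, n = 4 each). The other 3 genes together held 361 ± 14.2 TPM and 348 ± 8.11 TPM.

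**Figure D1:**
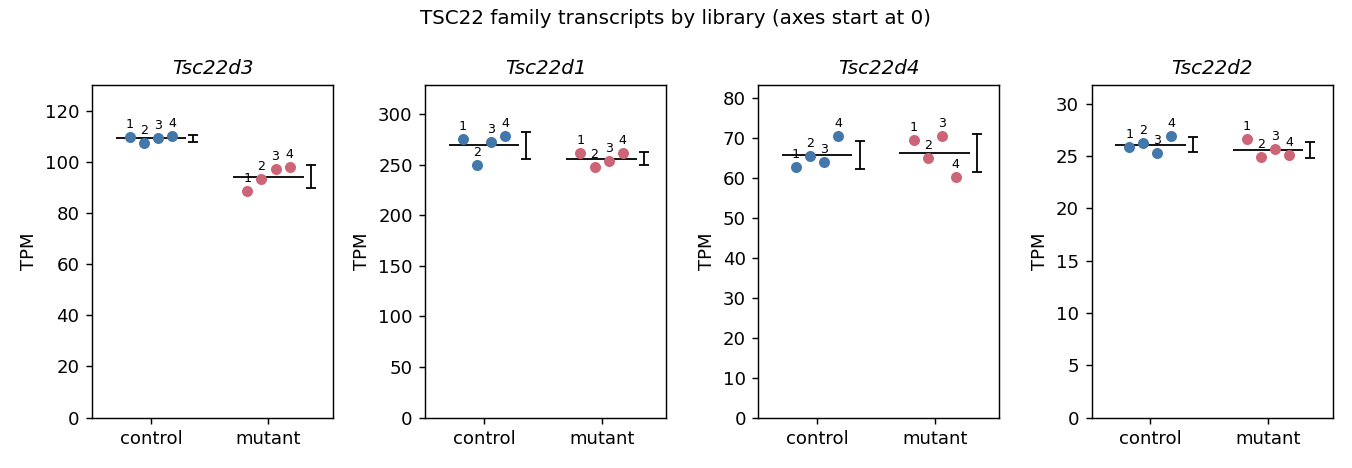
Level in TPM (vertical axes from 0) of the 4 TSC22 family genes in 4 control and 4 mutant libraries, with replicate numbers at the points, group means as horizontal lines and SD as bars. The Tsc22d3 mutants, at 88.4 to 98.1 TPM, all lie below the controls at 107.4 to 110.2 TPM, while the groups overlap in the other 3 genes.

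Long isoforms of TSC22 proteins bind the pseudokinases NRBP1 and NRBP2 and act with the WNK kinases, which sense cell volume and signal through the kinases encoded by Stk39 and Oxsr1. All 8 genes of this list were tested and 0 of them passed the adjusted threshold, against 0.0386% of all genes. At an unadjusted p below 0.05 there were 2, both higher (949 of all tested genes, or 6.1%, reach this). Oxsr1 was at 37.6 ± 1.07 TPM in control hearts and 40.0 ± 0.779 TPM in mutant hearts (log2 difference 0.088, standard error 0.036, limma adjusted p of 0.809). Its groups did not overlap, as in 3.68% of all tested genes. Stk39 was at 91.2 ± 2.50 and 99.3 ± 6.42 TPM (log2 difference 0.12, standard error 0.048, limma adjusted p of 0.809), and its groups overlapped. The abundant members Nrbp1, at 92.1 ± 0.909 and 89.8 ± 4.01 TPM, and Wnk1, at 122 ± 2.41 and 123 ± 3.89 TPM, had log2 differences of -0.038 and 0.0083. Nrbp2, Wnk2, Wnk3 and Wnk4 were low, with group means between 1.02 and 10.6 TPM, and had log2 differences between -0.065 and 0.040. The median of the list was -0.0024, beside -0.0033 for all genes tested.

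The receptor gene itself, Nr3c1, was measured at a moderate level in both groups and did not differ beyond replicate spread. It lies on chromosome 18 from base 39410545 to base 39519421. The controls held 14.7, 14.4, 14.4 and 12.6 TPM and the mutants 14.6, 13.3, 13.3 and 7.76 TPM. Mutant replicate 4 stood far below the rest and control replicate 4 was the lowest control, while the other 3 mutants overlapped the controls. The log2 difference was -0.22, as large as that of Tsc22d3 but with a standard error of 0.16 and a 95% interval of -0.58 to 0.15 (limma, adjusted p of 0.903). Without mutant replicate 4 it was -0.030 (limma, adjusted p of 0.973). In that same library Tsc22d3, at 98.1 TPM, was the highest of the 4 mutants.

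The machinery around the receptor was measured with a list of 25 genes for the receptor, its chaperones, cofactors and the enzymes and carriers of the hormone, of which 20 were tested. None passed the adjusted threshold, a count of 0 (limma) beside 0.0386% of all genes, and 1 was past an unadjusted p of 0.05, beside 6.1%. The median log2 difference was 0.035, with 13 genes higher and 7 lower, where all genes tested had a median of -0.0033 with 7490 higher and 8055 lower. Leaving out control replicate 3 brought the median of the list to 0.010 and leaving out control replicate 4 brought it to 0.047. The chaperones that hold the receptor ready were among the most abundant transcripts of the list. Hsp90ab1 stood at 1946 ± 66.1 TPM in control hearts and 2001 ± 28.4 TPM in mutant hearts (SD, n = 4 each), with a log2 difference of 0.041 (limma, adjusted p of 0.922). Hspa8, for the chaperone that loads the receptor on to heat shock protein 90, and Hsp90aa1 differed by 0.035 and 0.034. Ptges3, for the p23 cochaperone, was at 141 ± 2.71 and 149 ± 5.67 TPM, a log2 difference of 0.078 (limma, unadjusted p of 0.0497, adjusted p of 0.818). Ncoa2, a coactivator of nuclear receptors, differed by 0.15 (limma, adjusted p of 0.865).

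Of the hormone-handling enzymes, Hsd11b2, which inactivates glucocorticoid, was at 5.70 ± 1.14 TPM in control hearts and 7.00 ± 0.978 TPM in mutant hearts. The log2 difference of 0.26 had an interval of -0.033 to 0.56 (limma, adjusted p of 0.841), and the groups overlapped. Hsd11b1, which regenerates the active hormone, ranged from 0.0730 to 1.34 TPM and was not tested. Nr3c2, the mineralocorticoid receptor that binds the same hormones, reached at most 0.236 TPM. Serpina6, the plasma carrier of glucocorticoid made by the liver, was listed at 0 in every library.

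In none of the 5 responsive genes besides Tsc22d3 did the values of the 2 genotypes separate. Fkbp5 encodes the cochaperone that lowers the affinity of the receptor for hormone and is widely used as a readout of receptor activity (chromosome 17, bases 28398753 to 28486149). Its controls held 16.1, 16.4, 14.8 and 17.4 TPM and its mutants 17.3, 17.2, 18.2 and 15.6 TPM. Mutant replicate 3 lay above all controls, and mutant replicates 1 and 2 lay above all but control replicate 4. Mutant replicate 4 lay among the controls. Mutants and controls differed by 0.069 on the log2 scale, with an interval of -0.076 to 0.21 (limma, adjusted p of 0.928).

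Per1 encodes a repressor of the circadian clock whose gene is also induced by glucocorticoid and by cAMP (chromosome 11, bases 69095108 to 69109965). It was measured at 10.7, 11.5, 11.2 and 11.5 TPM in control hearts and 12.2, 11.9, 13.0 and 10.0 TPM in mutant hearts. Mutant replicates 1, 2 and 3 lay above all controls and mutant replicate 4 below all of them, so the groups overlapped. Its log2 difference of 0.062 had an interval of -0.11 to 0.24 (limma, adjusted p of 0.945).

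Sgk1 encodes a kinase that controls ion channels and transporters (chromosome 10, bases 21882184 to 21999903). The controls held 14.0, 13.6, 16.5 and 15.4 TPM and the mutants 16.7, 12.7, 13.4 and 16.2 TPM. Each group had a pair of higher and a pair of lower libraries over a similar range. Its log2 difference of -0.017 had an interval of -0.23 to 0.20 (limma, adjusted p of 0.992).

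Klf9 and Zbtb16 were near the limit of what was tested. Klf9, for a zinc-finger factor induced by glucocorticoid and thyroid hormone (chromosome 19, bases 23141226 to 23168129), had 2.13, 1.82, 1.86 and 1.93 TPM in control hearts and 2.24, 1.74, 2.30 and 2.18 TPM in mutant hearts. Mutant replicates 1, 3 and 4 lay above all controls and mutant replicate 2 below them. A log2 difference of 0.083 was found, with an interval of -0.13 to 0.30 (limma, adjusted p of 0.942). Zbtb16, for a zinc-finger repressor that is a strong glucocorticoid target in several adult tissues (chromosome 9, bases 48651797 to 48836225), had 0.853, 0.954, 0.903 and 0.775 TPM in control hearts and 0.727, 0.992, 1.05 and 0.870 TPM in mutant hearts. It reached 1 TPM in 1 library, below the required 4, and was not tested.

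**Figure D2:**
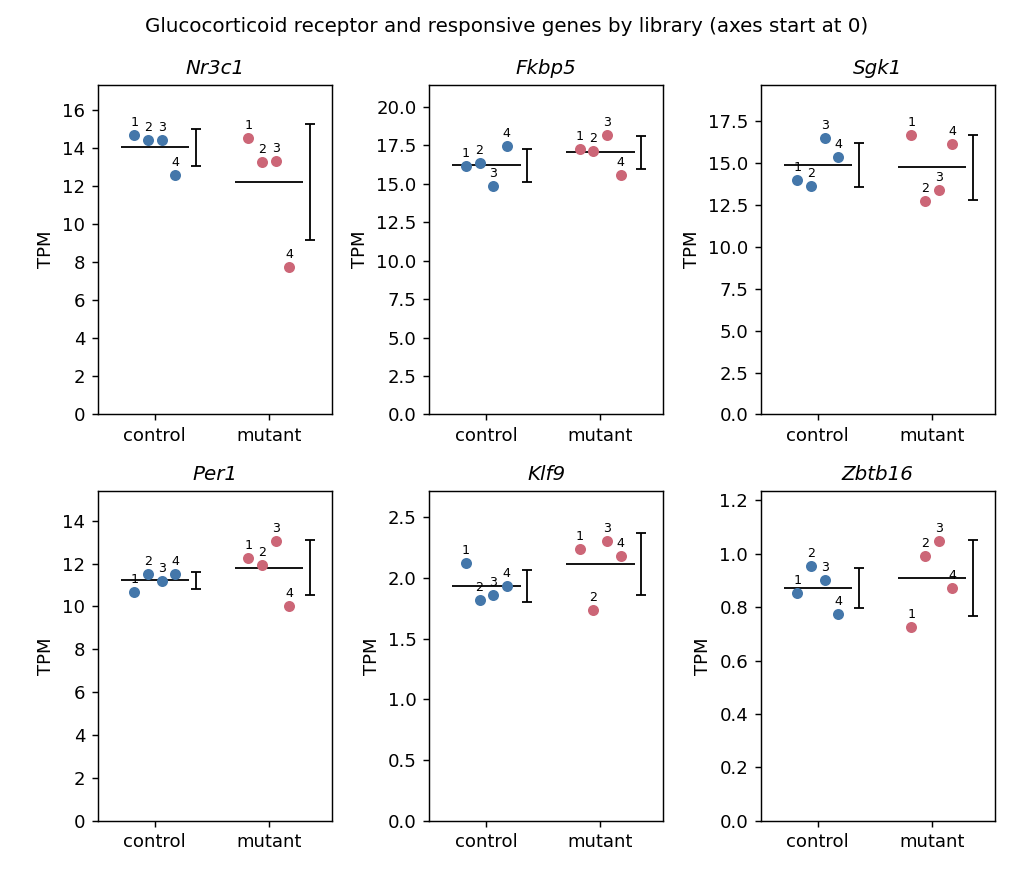
Level in TPM (vertical axes from 0) of the glucocorticoid receptor gene and 5 responsive genes in 4 control and 4 mutant libraries, with replicate numbers at the points, group means as horizontal lines and SD as bars. The groups overlap in all 6 genes, and mutant replicate 4 lies apart in Nr3c1 at 7.76 TPM.

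Apart from Tsc22d3, then, 8 members were tested and 0 passed the adjusted threshold, against 0.0386% of all genes. At an unadjusted p below 0.05 (limma) there were 0 of the 8, beside 6.1% of all genes. In 0 of the 8 did the groups separate, beside 3.68% of all tested genes. Of these 8 genes 4 were higher and 4 lower, and the median log2 difference was -0.0030. Of the 578 tested X-linked genes 0 passed the adjusted threshold (limma), against 0.0386% of all genes. Tsc22d3 itself, picked for its difference, is left without a test.

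**Figure D3:**
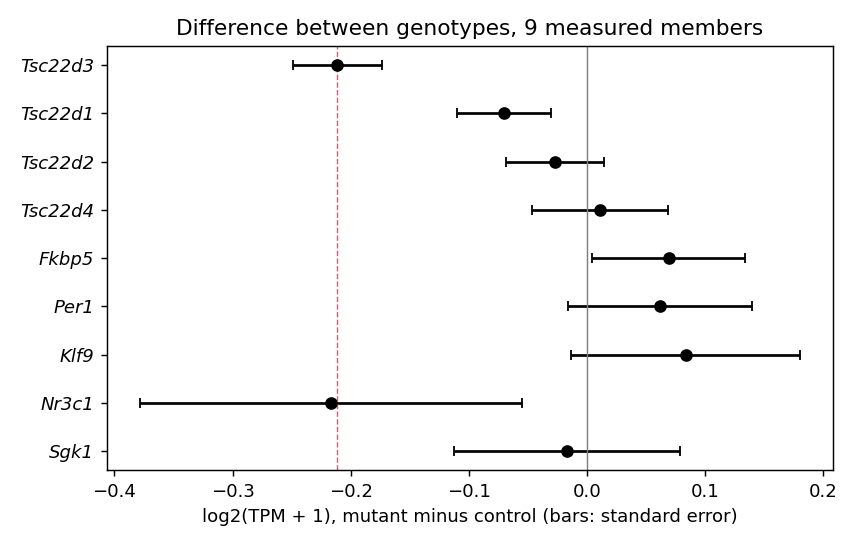
Difference on the log2(TPM + 1) scale, mutant minus control, of the 9 members with enough expression to be tested, with standard errors as bars, a grey line at 0 and a dashed line at the Tsc22d3 value. Tsc22d3 stands at -0.21, Nr3c1 at -0.22 with a wider error, and the other 7 lie between -0.070 and 0.083.

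RefSeq promoter windows were found for 6 of the 9 members searched, 18 windows in all. Short stretches of GRCm38 around the matches are shown for the responsive genes because they set the letters near their starts beside those of Tsc22d3, with the matched motif in capitals, 5′ to 3′ on the strand of the gene.
Sgk1, full glucocorticoid response element, chr10:21993694-21993723, plus strand: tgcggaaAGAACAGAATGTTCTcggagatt
Per1, first 7 letters of the cAMP response element, chr11:69100009-69100038, plus strand: agctcagcggcTGACGTCggtttccctggc
Per1, E-box, chr11:69098771-69098800, plus strand: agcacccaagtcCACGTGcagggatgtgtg
Fkbp5, E-box, chr17:28486301-28486330, minus strand: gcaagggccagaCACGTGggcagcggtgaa

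The Sgk1 match begins at position -189 from one of its 6 listed starts and has both arms complete. Only 3 of 32851 windows, or 0.00913%, hold this full element, and 0.475% hold the relaxed form. The arm alone was also in 3 of the 6 Sgk1 windows and in 1 of the 5 Tsc22d1 windows. The E-box occurs in 7.15% of windows, among them 1 window each of Sgk1, where it overlaps an arm, and Tsc22d1. The 7-letter cAMP element occurs in 3.21%. The Klf9 window held a FOXO site, found in 3.65% of windows, and the C/EBP-ATF element, found in 3.97%, was in no window of the members. The mean of Sgk1 in mutant hearts was 99.1% of its control mean, a gene-level value that does not tell its 6 listed starts apart. Whether the full element has a part in the Sgk1 level here was not tested.

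A longer list of 30 genes known to respond to glucocorticoid in various tissues was then read in the same fit. Of these 26 were tested, 0 passed the adjusted threshold (limma; 0.0386% of all genes) and 1 was past an unadjusted p of 0.05 (6.1% of all genes). The median log2 difference was 0.031, with 15 genes higher and 11 lower, and ran from 0.0091 without control replicate 3 to 0.043 without mutant replicate 4. The gene past the unadjusted threshold was Glul, for glutamine synthetase, at 57.4 ± 1.98 TPM in control hearts and 54.1 ± 1.15 TPM in mutant hearts, with a log2 difference of -0.084 and an adjusted p of 0.809. It was also the only gene of the 26 whose groups did not overlap, as in 3.68% of all tested genes. Cdkn1c, for the imprinted cell cycle inhibitor p57, was the most abundant, at 1517 ± 8.08 and 1534 ± 65.9 TPM, and differed by 0.016 (limma, adjusted p of 0.975).

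Tgm2, for a transglutaminase, and Rhob, for a small GTPase, differed by -0.014 and 0.021. Anxa1, for the anti-inflammatory protein annexin A1, had the highest value of the list, 0.28, at 7.29 ± 0.982 and 9.16 ± 1.84 TPM (limma, adjusted p of 0.841), and ran from 0.20 to 0.42 with any 1 library left out. The lowest value, -0.27, was that of Sult1a1, for a sulfotransferase (limma, adjusted p of 0.903), and it ran from -0.41 to -0.15 with any 1 library left out. Nfkbia, for the inhibitor of NF-kappa-B, differed by -0.12 (limma, adjusted p of 0.857). Bcl6, Tat, Lcn2 and Scnn1a were not tested, and each stayed below 1 TPM in all 8 libraries.

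Since Tsc22d3 is also known as a FOXO target, 16 genes for FOXO factors and their targets were read, and all were tested. None passed the adjusted threshold, a count of 0 (limma; 0.0386% of all genes), 1 was past an unadjusted p of 0.05 (6.1% of all genes), and the median log2 difference was -0.013. That gene was Txnip, for the thioredoxin-interacting protein that restrains glucose uptake, at 117 ± 17.6 TPM in control hearts and 96.8 ± 2.07 TPM in mutant hearts. Its log2 difference was -0.26 with a standard error of 0.091 (limma, adjusted p of 0.783), and the groups overlapped. Gabarapl1, for an autophagy protein, and Bcl2l11, for the pro-apoptotic protein BIM, differed by -0.097 and -0.14 (limma, adjusted p of 0.843 and 0.858). The abundant antioxidant genes Sod2 and Cat differed by -0.012 and 0.041.

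Per1 belongs to the circadian clock as well, and the other 14 clock genes listed were all tested. None passed the adjusted threshold or an unadjusted p of 0.05, a count of 0 in both (limma; 0.0386% and 6.1% of all genes), and the median log2 difference was -0.040, with 5 genes higher and 9 lower. Hlf, for a clock-controlled activator, was at 2.33 ± 0.180 and 1.99 ± 0.126 TPM without overlap of the groups, as in 3.68% of all tested genes (log2 difference -0.16, limma adjusted p of 0.852). Per3, a relative of Per1, differed by -0.14, and Bhlhe40, a repressor that also responds to hypoxia, by 0.25 (limma, adjusted p of 0.865 and 0.861). Bhlhe40 was at 0.11 without control replicate 3 and at 0.35 without control replicate 4. Tef and Cry2 were, with Bhlhe40, the most abundant of the list and differed by 0.092 and 0.0045.

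**Figure D4:**
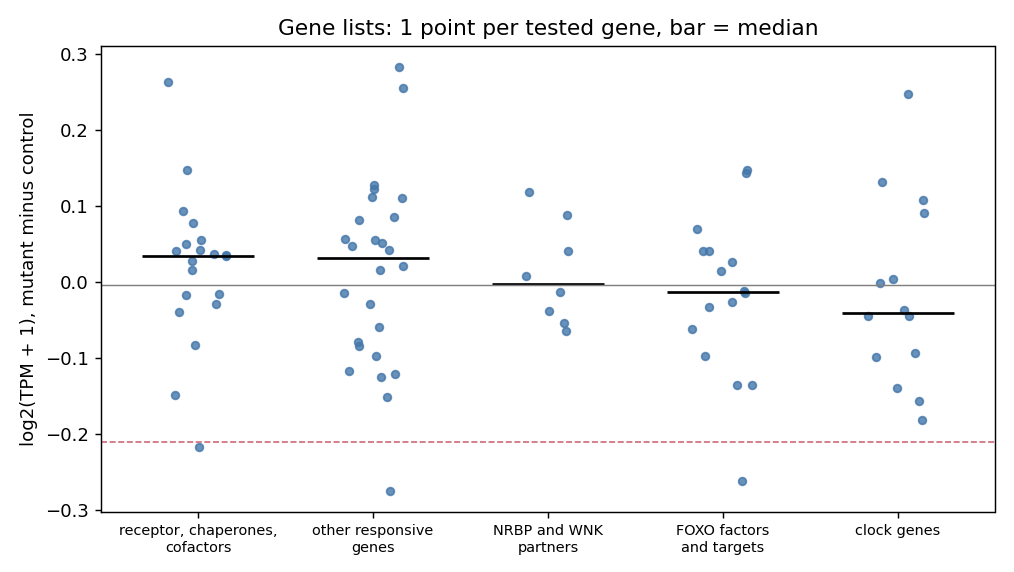
Difference on the log2(TPM + 1) scale, mutant minus control, of every tested gene in the 5 lists, 1 point per gene, with the list median as a bar, the median of all tested genes as a grey line and the Tsc22d3 value of -0.21 as a dashed line. The medians lie between -0.040 and 0.035, and Nr3c1, Sult1a1 and Txnip lie below the dashed line.

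How the members varied between libraries of the same group does not use the difference between genotypes. After the mean of each group was removed, the correlation of Tsc22d3 with the other 8 tested members over the 8 libraries ranged from -0.67, with Nr3c1, to 0.18, with Klf9. These are descriptions over 8 libraries that share their scaling. Tsc22d3 deviated from its group mean by -0.023 to 0.014 in control hearts and by -0.089 to 0.059 in mutant hearts. Its r values therefore rest mostly on the mutant libraries. Tsc22d4, Per1, Fkbp5, Tsc22d2 and Nr3c1, grouped here after their values were seen, had Pearson r between 0.25 and 0.87 in their 10 pairs over all 8 libraries. The closest pairs were Tsc22d4 with Per1 at 0.87 and Tsc22d4 with Fkbp5 at 0.85. Tsc22d3 was correlated with each of these 5 genes between -0.67 and -0.17. Single libraries carried part of these values, as leaving out each in turn, a step added after the values were seen, showed. Without mutant replicate 4 the 10 pairs ran from -0.66 to 0.79, with 4 below 0. All 4 were pairs with Nr3c1, among them Per1 at -0.42 and Tsc22d4 at -0.57. The 6 pairs among Tsc22d2, Tsc22d4, Fkbp5 and Per1 ran from 0.39 to 0.79 without it. Tsc22d3 was then correlated at 0.40 with Per1 and at 0.30 with Fkbp5. Without mutant replicate 1 the highest r of Tsc22d3 was 0.85, with Klf9, followed by 0.73 with Tsc22d1 and 0.70 with Sgk1, and 1 of the 10 pairs was below 0, at -0.081.

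**Figure D5:**
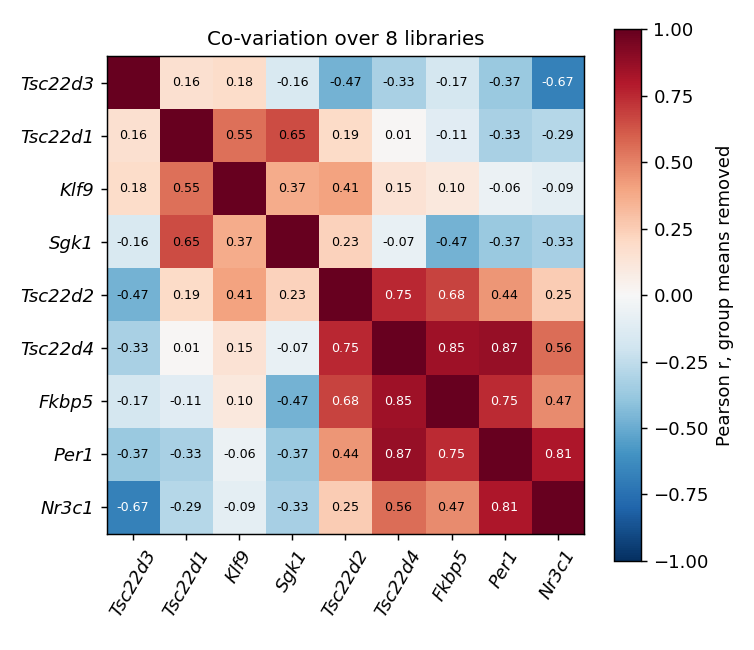
Pearson r between members over the 8 libraries after removal of the mean of each group, from -1 (blue) to 1 (red). Tsc22d4, Per1 and Fkbp5 stand at 0.75 to 0.87, while the highest value of Tsc22d3 is 0.18; pairs of Nr3c1 with the 4 genes Tsc22d2, Tsc22d4, Fkbp5 and Per1 turn negative without mutant replicate 4.

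Among 11626 tested genes with a mean of at least 5 TPM, the 5 whose deviations were most like those of Tsc22d3 over the 8 libraries were Rad54b (r of 0.983), Fah (0.976), Gng5 (0.972), Rpl14-ps1 (0.968) and Ndufab1-ps (0.967). With any 1 library left out the r of these 5 was at least 0.881, the lowest being that of Rpl14-ps1 without mutant replicate 1. The 5 were picked for their r over these same libraries, so these values are no separate evidence of likeness. As above, they rest mostly on the mutant libraries. In all, 30 candidates had an r above 0.9 and 54 below -0.9, and how many chance alone would give was not tested. These 5 had log2 differences between genotypes from -0.049 to 0.035 (limma, adjusted p of at least 0.930), beside -0.21 for Tsc22d3. Rpl14-ps1 and Ndufab1-ps are pseudogene copies, so their values can hold reads of the parent genes.

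In whole ventricle, fewer cells of a type and less transcript per cell cannot be told apart, and Tsc22d3 is known to be abundant in leukocytes. The 10 macrophage markers all had lower means in mutant hearts and summed to between 11.8 and 24.9 TPM in control hearts and between 7.01 and 13.2 TPM in mutant hearts, with 3 of them (Adgre1, Fcgr1 and Ptprc) below 1 TPM in every library. Within control hearts the marker sum differed 2.11-fold between the highest and lowest library while Tsc22d3 differed 1.03-fold, and within mutant hearts the figures were 1.88-fold and 1.11-fold. The part of these markers in the Tsc22d3 difference was not tested. The 10 erythroid markers summed to between 4675 and 7965 TPM in control hearts and between 4365 and 6076 TPM in mutant hearts, with 8 of 10 lower, and with their mean as a covariate the Tsc22d3 log2 difference was -0.20. Endocardial and endothelial markers summed to between 824 and 913 TPM in control hearts and between 794 and 881 TPM in mutant hearts, with 7 of 10 lower. Epicardial markers (325 to 369 and 324 to 356 TPM) and cushion mesenchyme markers (691 to 814 and 674 to 786 TPM) overlapped as well. The hepatocyte markers were all below 1 TPM.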

How the data were processed

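The values are TPM as deposited by the authors, 1 column per library, mapped to the samples by library name. The submitters' processing notes name Trim Galore 0.6.7, HISAT2 2.2.1, StringTie 2.2.1, FastQC, featureCounts and DESeq2, and GRCm38, with no roles. The labels disagree on extraction and library type, and strand handling is not given in the sources used here. All 10 members had the start and end of RefSeq genes of GRCm38.p6. Sequences are RefSeq promoter windows of that build; no window was found for Tsc22d2, Tsc22d4 or Zbtb16.

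The 15545 genes that reached 1 TPM in 4 or more libraries were compared as log2(TPM + 1) in limma 3.58.1 (R 4.3.3) with a variance trend, two-sided, Benjamini-Hochberg adjusted over all of them. No value is known in reads, so no counting interval is given. The replicates are separate samples per the labels. The p-values, intervals and standard errors set each group difference against the spread between replicates. In the fit that spread is drawn toward a trend over all tested genes. The fit was tested on simulated data. The rest used Python 3.11.15, numpy 2.4.6, pandas 2.3.3 and matplotlib 3.10.9.

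The members and lists were chosen with earlier results of these data known. All members, Atf4 and the 8 partners are named. In each other list the 3 most abundant genes and the 3 with the smallest p are named, together with the 5 genes most like Tsc22d3. Other names were added after their values were seen. The alternatives changed the scaling (quantile or median-of-ratios), the pseudocount (0.1), the filter (5 TPM or none), the variance trend, the library weights or the covariates (replicate block, erythroid markers), or dropped 1 library.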

Additional observations from a re-analysis of the deposited data

Results flagged for a closer look

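The members, Atf4 and the genes named from the lists by rule were checked, on the log2 scale, for a single library lying well away from the other 3 of its group. Of 82 groups checked 4 held such a library, against 4.1 that chance alone gives at its rate of 5%. Nr3c1, the glucocorticoid receptor gene, had 7.76 TPM in mutant replicate 4, where the other mutants ranged from 13.3 to 14.6 TPM. It also had 12.6 TPM in control replicate 4, where the other controls ranged from 14.4 to 14.7 TPM. For Sod2 the highest control was replicate 1, with 80.2 TPM beside 71.3 to 72.5 TPM. For Bcl2l11 the highest mutant was replicate 3, with 14.7 TPM beside 12.1 to 12.5 TPM. Over all tested genes, mutant replicate 4 lay apart from its group in 1.92%, the highest share of the 8 libraries, and control replicate 4 in 1.35%, while the lowest share was 1.20%, in control replicate 2. Whether library quality has a part in the Nr3c1 values was not tested.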

How the results depend on the processing

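The fits were repeated under 17 alternatives, all planned; only the correlations with each library left out were added after seeing the data. The Tsc22d3 log2 difference stayed between -0.23 and -0.18 with any 1 library left out and between -0.22 and -0.20 under the other 9. Since the gene was picked for this difference in these same libraries, that range is a description and no separate evidence. The number of other members, and of list genes, past the threshold was 0 in all 17. The 6 calls over all genes became 0 with no filter, with no variance trend, with the erythroid covariate and with the replicate block, and 0 to 3 with any 1 library left out (0 without control replicate 2, 3 or 4); the cause was not tested. Deviations of same-numbered control and mutant libraries correlated between -0.082 and 0.035, and those of differently numbered ones between -0.054 and 0.057. Whether equal numbers share a litter or handling is not given in the sources used here, and these values cannot tell. With the replicate block Atf4 was at 0.57 (limma, adjusted p of 0.249).

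Of 45 tested named genes other than Tsc22d3, 32 kept the sign of their log2 difference in every alternative, and those that did not were never past the threshold. With 1 library left out, Sgk1 ran from -0.075 to 0.045, Tsc22d4 from -0.019 to 0.056, Wnk1 from -0.0047 to 0.030, Wnk2 from -0.0026 to 0.10, Wnk3 from -0.12 to 0.068, Nrbp2 from -0.11 to 0.036, Cdkn1c from -0.011 to 0.033, Rhob from -0.0099 to 0.064, Sod2 from -0.036 to 0.027, Cry2 from -0.041 to 0.037, Rad54b from -0.10 to 0.092, Fah from -0.10 to 0.028 and Rpl14-ps1 from -0.013 to 0.078. With the erythroid covariate Sgk1 was at 0.031, Wnk3 at 0.060, Cry2 at -0.022, Rad54b at 0.016 and Fah at 0.0019. Quantile normalization put Tsc22d4 at -0.0039, Wnk1 at -0.011 and Wnk3 at 0.038, and weights per library put Cry2 at -0.0021 and Wnk3 at 0.0013. The number of reads is unknown, so what depth allows for Klf9 and Zbtb16, near 2 and 1 TPM, cannot be stated.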
